A study of Mus musculus with 12 samples.

Results

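Hippocampal astrocytes overexpressing the adenosine A2A receptor were compared with astrocytes expressing GFP, with the emphasis on transporters, receptors, enzymes, transcription factors and other genes of moderate to high expression. The comparison used 6 of the 12 libraries of the series, 3 AAV-A2A libraries (animals 309, 310 and 313, named A2A-309 and so on) and 3 AAV-GFP libraries (animals 303, 306, 307, named likewise), chosen by their labels and not by any measured value. Both groups were wild-type male C57Bl6/J mice, injected on both sides of CA1 at 2 months of age and killed 2 months later, at 4 months. The vector was of serotype AAV2/9 in both groups, and a GfaABC1D promoter, which is selective for astrocytes, drove murine Adora2a in the AAV-A2A group and enhanced GFP in the AAV-GFP group. Cells were taken from whole dissected hippocampi, while the injection aimed at CA1, so each library also held astrocytes outside the injected field. After removal of myelin, cells were retained on magnetic beads against astrocyte cell surface antigen 2 (ACSA-2) and their poly(A) RNA was sequenced. The other 6 libraries came from CD11b-positive cells of other animals, and only the level of a gene in their AAV-GFP libraries was used here, from a separately normalized table.

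The A2A receptor couples to the stimulatory G protein Gs, which activates adenylyl cyclase, raises cyclic AMP and thereby activates protein kinase A and the transcription factor CREB. Astrocytes clear transmitters and ions from the extracellular space through transporters and pumps, release and take up metabolites, and read their surroundings through G protein-coupled, Notch and growth factor receptors. The A2A receptor is normally low in hippocampal astrocytes and is known to rise there in disease.

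The libraries held 33937067 to 49217553 counts over genes and detected 20271 to 21229 genes each. Adora2a (chr10:75316877-75334784, GRCm38, as all positions here) stood at 24.54, 22.96 and 25.11 CPM (counts scaled to a common effective library size) in the AAV-GFP libraries and at 757, 656 and 945 CPM in the AAV-A2A libraries, so the labels matched the targeted gene in all 6 libraries. Reads of the vector and of the endogenous gene were not separated. The 18 astrocyte markers summed to 45480 to 51140 CPM in AAV-GFP and 46640 to 69900 CPM in AAV-A2A libraries, and 12 neuronal markers to 82.1 to 144 and 60.7 to 114 CPM. Mitochondrially encoded transcripts made up 0.195 to 0.341% of the counts in 5 libraries and 0.864% in A2A-310, which also lay farthest out on the first principal component. On the second principal component GFP-303 lay farthest out (96.05, against 41.15 for A2A-310). The part of A2A-310 in the results is given by the values without it.

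Most of the genes that changed were lower in AAV-A2A astrocytes. Of 16451 genes tested, 524 fell (3.19%) and 29 rose (0.176%), together 3.36%, at a Benjamini-Hochberg adjusted p under 0.05 in edgeR's quasi-likelihood test and an absolute log2 fold change over 0.32. Called falls were most frequent among well expressed genes, where higher counts also make a change easier to call. Of 1804 genes with a mean of at least 100 CPM, called high expression here, 196 fell (10.9%) and 10 rose (0.554%), together 11.4%, and of 4647 genes between 20 and 100 CPM, called moderate, 266 fell and 7 rose. Among the 5686 genes under 5 CPM, 11 fell and 9 rose. Median log2 fold changes were 0.0335 under 5 CPM, -0.0522 from 5 to 20, 0.0285 from 20 to 100 and 0.0877 from 100 CPM. With DESeq2 on the same counts, 992 genes fell and 271 rose, so that the falls made up 78.5% of the calls in place of 94.8%. Leaving out 1 library lowered the number called from 553 to between 313 and 467. The lowest numbers came without GFP-306 (313), A2A-310 (333) and A2A-313 (350), and falls made up 94.9 to 97.9% of the calls in the 6 cases.

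**Figure D1:**
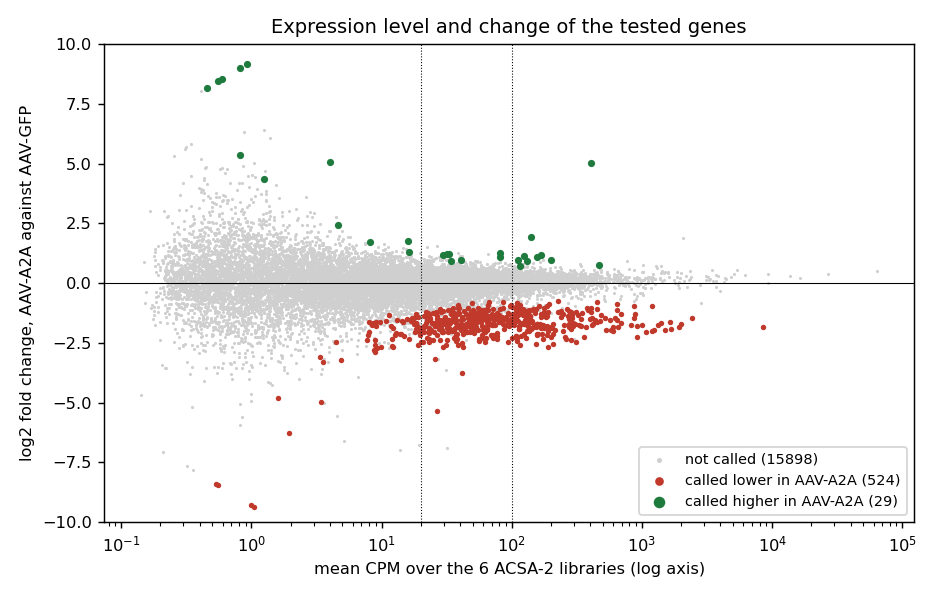
Each point is 1 of the 16451 tested genes, with its mean CPM over the 6 ACSA-2 libraries on a log axis against its log2 fold change, AAV-A2A against AAV-GFP; dotted lines mark 20 and 100 CPM. The 524 genes called lower (red) lie mostly to the right of the first dotted line, while 9 of the 29 genes called higher (green) lie under 5 CPM.

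Separation of the libraries was far more even in direction than the calls. Among the 6451 genes of moderate or high expression, the 3 AAV-A2A values lay all above the 3 AAV-GFP values for 714 genes (11.1%) and all below them for 989 (15.3%), together 26.4%, against 462 genes called lower (7.16%) and 17 called higher (0.264%), together 7.43%. Over all tested genes the shares that did not overlap were 8.61% higher and 10.9% lower (19.6% together), and among genes of at least 100 CPM 13.6% and 16.1% (29.7% together). With 3 against 3 libraries, separation of a single gene cannot give an exact two-sided permutation p under 0.10, so these counts are a description.

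The share of falls was larger among genes with longer exons. Among genes of moderate or high expression, 1.24% of the shortest quartile (0.057 to 2.59 kb of exon) were called lower, 3.6% of the next, 8.19% of the next and 15.6% of the longest quartile (6.33 to 41.3 kb). Genes whose AAV-A2A libraries lay wholly above the AAV-GFP libraries ran the other way at the short end, with 15.9% of the shortest quartile and 9.05% of the longest. GC content gave a narrower range, from 5.89% called lower in the quartile poorest in GC to 8.25% in the richest. The rank correlation of expression deviation with exonic length was positive in each AAV-GFP library (0.0388 to 0.139) and negative in each AAV-A2A library (-0.107 to -0.141). When the trend on length and GC content was removed from each library, 516 genes were called, 470 lower and 46 higher, and 477 of them were among the 553 calls above.

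**Figure D2:**
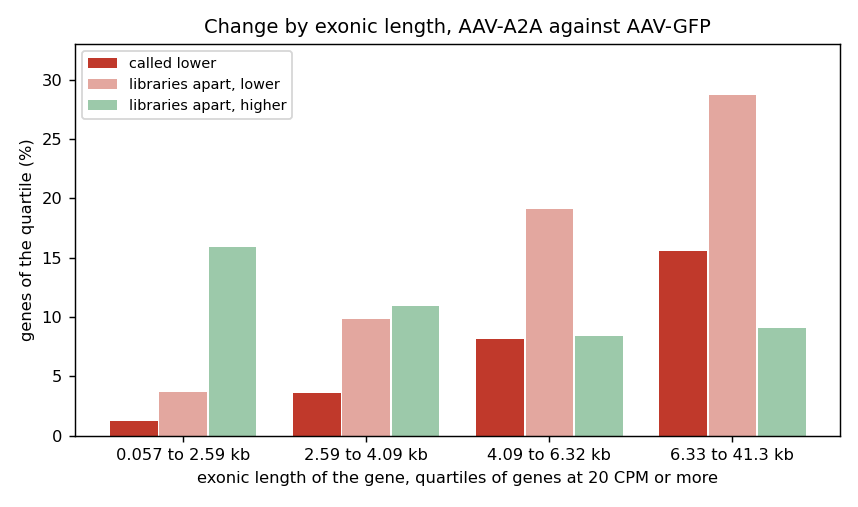
Bars give the percentage of genes in each quartile of exonic length (kb, genes of at least 20 CPM) that were called lower, or whose 3 AAV-A2A libraries lay all below or all above the 3 AAV-GFP libraries. The share called lower goes from 1.24% in the shortest to 15.6% in the longest quartile, and the share lying all above from 15.9% to 9.05%.

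The 4 functional classes, set by gene symbol, held protein-coding genes only, while the tested genes also include other gene types. Each class had a larger share of falls than the 3.19% of all tested genes. The shares were 31 of 497 transporters and channels (6.24%), 29 of 416 receptors (6.97%), 87 of 1656 enzymes (5.25%) and 46 of 849 transcription factors (5.42%). Rises numbered 0, 3, 0 and 1. The median log2 fold change was -0.09, -0.19, -0.04 and -0.07 in the same order, against 0.02 over all tested genes. At moderate or high expression, where 7.16% of all genes fell, the shares were 13.6% of 199 transporters and channels, 17.2% of 151 receptors, 10.1% of 802 enzymes and 16.6% of 229 transcription factors. Exonic length moved with these counts, since the median length at that level was 4.09 kb over all genes and 4.94, 5.77, 4.82 and 5.38 kb in the 4 classes. Within the longest quartile, 18.8% of transporters and channels, 26.9% of receptors, 20.4% of enzymes and 20.2% of transcription factors were called lower, against 15.6% of all genes of that length. In the shortest quartile the numbers were 0 of 29, 1 of 10, 0 of 116 and 0 of 40. In the next quartile the shares were 8.33%, 6.9%, 3.89% and 22% in the same order, against 3.6% of all genes. In the quartile after that they were 19%, 11.1%, 8.54% and 18.8%, against 8.19%.

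**Figure D3:**
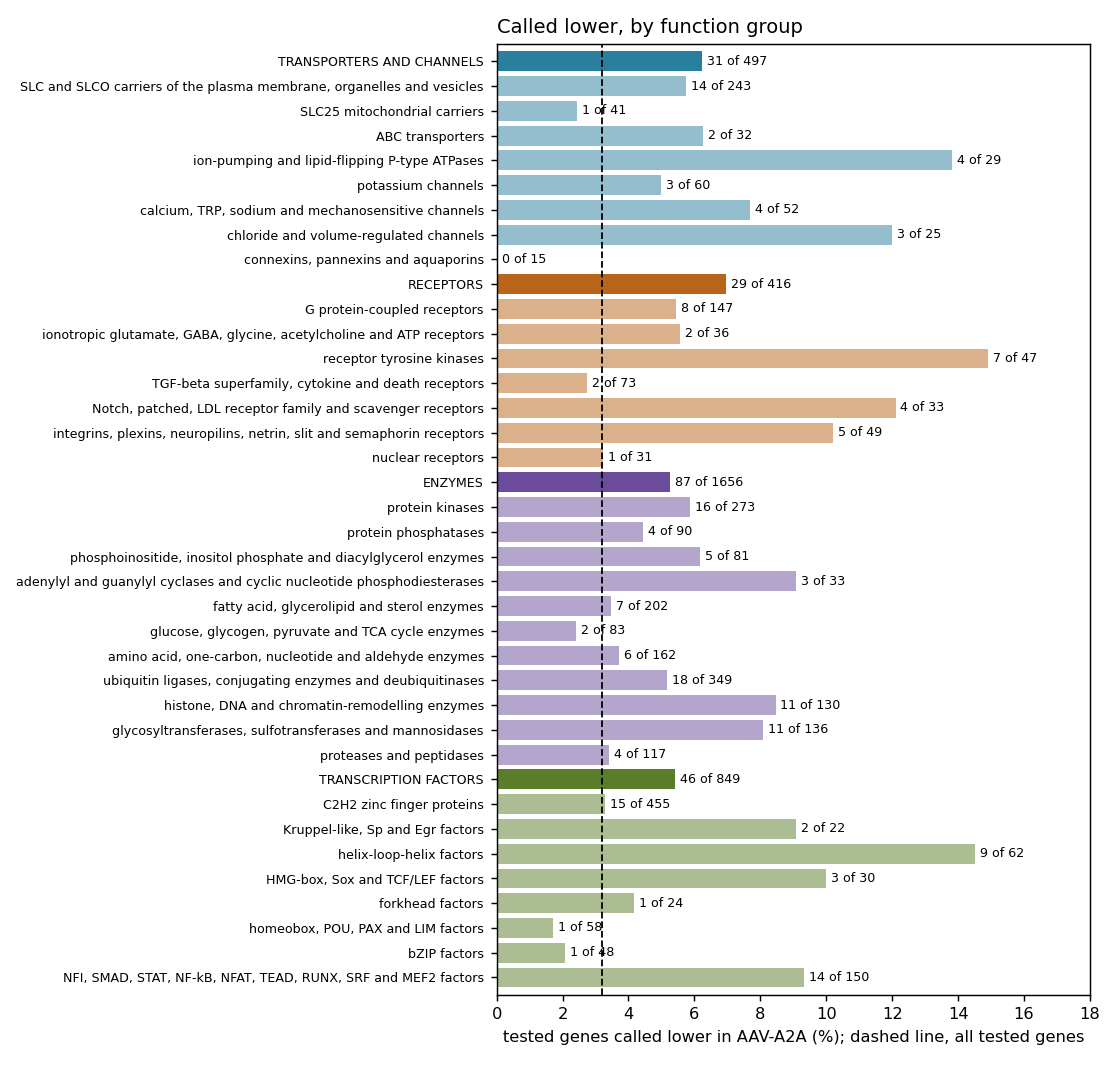
Bars give the percentage of tested genes called lower in AAV-A2A astrocytes for each class (full colour, capitals) and each group within it (pale), with the counts beside each bar; the dashed line is the 3.19% of all tested genes. Receptor tyrosine kinases (14.9%), helix-loop-helix factors (14.5%) and P-type ATPases (13.8%) have the longest bars, and connexins, pannexins and aquaporins had 0 calls among 15 genes.

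Of the 497 transporters and channels tested, 31 fell and 0 rose. Ttyh3 (chr5:140620578-140649031), which encodes a tweety-family protein linked to chloride channel activity, was at 1505, 1867 and 1787 CPM with AAV-GFP (animals 303, 306, 307) and at 515, 309 and 416 CPM with AAV-A2A (animals 309, 310, 313), the order kept for all values below. Slc7a1 (chr5:148327410-148399904), the cationic amino acid transporter that carries arginine and lysine, was at 247, 292 and 293 CPM with AAV-GFP and 85.1, 58.1 and 47.0 CPM with AAV-A2A. The related carrier Slc7a2 (chr8:40862396-40922308) was at 182, 157 and 214 CPM against 63.9, 56.2 and 46.8 CPM. All 3 genes were low in every AAV-A2A library with no overlap, and fell 4.16-fold, 4.38-fold and 3.32-fold (log2 fold changes of -2.06 ± 0.22, -2.13 ± 0.24 and -1.73 ± 0.20, ± SE with 3 libraries a group), at adjusted p-values of 0.00211, 0.00226 and 0.0024. Slc30a9 (chr5:67306955-67358443), a zinc transporter of intracellular membranes, was at 659, 490 and 438 CPM against 173, 122 and 158 CPM. Itpr2 (chr6:146108299-146502223), the main inositol trisphosphate receptor of astrocytes, which releases calcium from the endoplasmic reticulum, was at 542, 788 and 730 CPM against 236, 237 and 192 CPM. Both genes were likewise lower in every AAV-A2A library, and fell 3.5-fold and 3.1-fold (log2 fold changes of -1.81 ± 0.22 and -1.63 ± 0.20, adjusted p = 0.00279 and 0.00284). All 5 were called in each of the 6 fits that left out 1 library and with the length and GC trend removed. An antisense transcript, Gm26584, overlaps Slc7a2, and the kit used for the libraries does not mark strand, so reads of a gene and of a partner on the opposite strand cannot be told apart.

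Groups within the class differed in their counts. Of 243 plasma membrane, organelle and vesicle solute carriers 14 fell (5.76%). They included Slc6a11, the GABA transporter GAT-3, at 713, 957 and 866 CPM against 296, 127 and 235 CPM (3.86-fold lower, adjusted p = 0.00639). Slc23a2, the sodium-dependent vitamin C transporter, was at 735, 1181 and 940 CPM against 253, 162 and 298 CPM (4.01-fold lower, adjusted p = 0.00386). The large neutral amino acid exchanger Slc7a5 was at 57.0, 83.6 and 82.5 CPM against 28.0, 26.5 and 30.3 CPM (2.63-fold lower, adjusted p = 0.00768). In each of these carriers the highest AAV-A2A library was under the lowest AAV-GFP library. Of 29 P-type ATPases 4 fell (13.8%), and among them Atp13a5, a cation-transporting ATPase that is abundant in mural cells, was at 3159, 3538 and 2335 CPM against 834, 1120 and 550 CPM (3.61-fold lower, adjusted p = 0.00618). Of 60 potassium channels 3 fell, led by the small-conductance calcium-activated channel Kcnn3 at 136, 115 and 174 CPM against 56.5, 28.2 and 44.2 CPM (3.29-fold lower, adjusted p = 0.00862). Tpcn1, a calcium-permeable channel of endosomes and lysosomes, was at 370, 366 and 325 CPM against 156, 150 and 122 CPM (2.48-fold lower, adjusted p = 0.0035). Neither group overlapped the other in these channels. Of 32 ABC transporters 2 fell, among them Abca1, the cholesterol exporter, whose adjusted p of 0.0198 was lost without GFP-306, GFP-307 or A2A-310. Of 41 mitochondrial SLC25 carriers 1 fell (2.44%), the calcium-regulated ATP-magnesium carrier Slc25a23. Without GFP-306, 19 transporters and channels were called in place of 31, and DESeq2 called 56.

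Of the 416 receptors tested, 29 fell and 3 rose, 1 of the 3 being the targeted gene Adora2a. Notch2 (chr3:98013527-98150361), a receptor for Delta and Jagged ligands, was at 211, 158 and 181 CPM in AAV-GFP and 46.2, 28.0 and 37.7 CPM in AAV-A2A libraries. Tnfrsf19 (chr14:60963875-61046490), the TNF receptor family member TROY, was at 989, 1232 and 946 CPM against 388, 312 and 296 CPM. Ephb1 (chr9:101922128-102354693), a receptor tyrosine kinase for ephrin-B ligands, was at 516, 566 and 691 CPM against 201, 191 and 230 CPM. The groups lay apart for all 3, which fell 4.91-fold, 3.18-fold and 2.85-fold (log2 fold changes of -2.30 ± 0.23, -1.67 ± 0.19 and -1.51 ± 0.18, adjusted p = 0.00184, 0.00234 and 0.00279). Gpr155 (chr2:73341506-73386572), a lysosomal membrane protein named for its receptor-like domain and known as a cholesterol sensor, was at 139, 217 and 184 CPM against 55.5, 35.4 and 49.9 CPM. Gpr137c (chr14:45219717-45282725), an orphan membrane protein, was at 36.7, 30.8 and 35.4 CPM against 8.90, 6.65 and 9.44 CPM. Itga1 (chr13:114953096-115101964), the alpha-1 integrin subunit that binds collagen and laminin, was at 194, 138 and 142 CPM against 48.7, 61.1 and 40.2 CPM. The groups did not overlap here either, and the falls were 3.83-fold, 4.12-fold and 3.16-fold (log2 fold changes of -1.94 ± 0.24, -2.04 ± 0.26 and -1.66 ± 0.22, adjusted p = 0.00302, 0.00338 and 0.00406). All 6 stayed called without any 1 library. The annotation has transcripts on the opposite strand of Ephb1, Gpr155 and Gpr137c (Txndc16 for the last) and on the same strand as Notch2 and Itga1, so their counts carry that uncertainty.

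By group, 7 of 47 receptor tyrosine kinases fell (14.9%) and 0 rose. The collagen receptor Ddr1 was at 812, 1162 and 919 CPM against 425, 291 and 268 CPM (2.94-fold lower, adjusted p = 0.00567). Axl, a receptor for Gas6, was at 424, 457 and 496 CPM against 211, 141 and 198 CPM (2.51-fold lower, adjusted p = 0.00567). Both stood lower in every AAV-A2A library. Ror1, a receptor for Wnt5a, and Ddr2, another collagen receptor, fell 5.02-fold and 4.94-fold, and the insulin receptor Insr and Flt1, described with the endothelial markers, made up the 7 with Ephb1. Of 33 receptors of the Notch, patched, LDL receptor and scavenger families 4 fell (12.1%). Notch1 was at 337, 255 and 237 CPM against 108, 69.0 and 48.0 CPM (3.69-fold lower, adjusted p = 0.00769). Lrp1, an endocytic receptor for apolipoprotein E and many other ligands, was at 829, 741 and 571 CPM against 318, 231 and 166 CPM (2.99-fold lower, adjusted p = 0.00921). Neither gene had an AAV-A2A value that reached the AAV-GFP range. Of 49 integrins, plexins, neuropilins and guidance receptors 5 fell (10.2%), among them the integrin subunit Itgb8, which activates latent TGF-beta, and the netrin receptor Unc5c. Of 147 genes in the G protein-coupled receptor list 8 fell (5.44%), Gpr155 and Gpr137c among them. In that list 2 rose (1.36%), the targeted receptor itself and Adora2b. Ackr3, an atypical receptor that scavenges the chemokine CXCL12, was at 264, 315 and 228 CPM against 110, 114 and 82.7 CPM (2.63-fold lower, adjusted p = 0.00532). Fzd2, a Wnt receptor, was at 224, 179 and 196 CPM against 93.5, 72.1 and 108 CPM (2.19-fold lower, adjusted p = 0.013). Both stood lower in all 3 AAV-A2A libraries. The beta-1 adrenergic receptor Adrb1, which also couples to Gs, had a mean of 27.9 CPM against 8.63 CPM and an adjusted p of 0.046 that was lost when any 1 library was left out. Of 36 genes in the ionotropic receptor list, set by symbol, 2 fell and 1 rose. One of those that fell, Grina, is not itself an ionotropic receptor. Of 31 nuclear receptors 1 fell, the retinoic acid receptor Rara. The number of receptors called, 32, stayed within 1.5 times of that value in each leave-out, and DESeq2 called 53.

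Of 1656 enzymes tested, 87 fell (5.25%, against 3.19% of all tested genes) and 0 rose (against 0.176%). This was the largest number of falls but the smallest share among the 4 classes. Ogdhl (chr14:32322019-32348151), a 2-oxoglutarate dehydrogenase-like enzyme, was at 432, 510 and 500 CPM in AAV-GFP and 103, 77.9 and 97.2 CPM in AAV-A2A libraries. Mapk6 (chr9:75369062-75410005), the atypical MAP kinase ERK3, was at 332, 255 and 288 CPM against 57.0, 51.0 and 67.0 CPM. Both were low in all AAV-A2A libraries, with a gap between the groups several times wider than either group's range for Ogdhl, and they fell 5.18-fold and 5.0-fold (log2 fold changes of -2.37 ± 0.18 and -2.32 ± 0.19, each at adjusted p = 0.00106). Extl1 (chr4:134356372-134383850) and Extl3 (chr14:65052060-65149855) encode exostosin-like glycosyltransferases of heparan sulfate synthesis. Extl1 was at 300, 367 and 355 CPM against 91.1, 83.3 and 85.1 CPM. Extl3 was at 182, 196 and 201 CPM against 49.8, 34.9 and 41.3 CPM. Gpcpd1 (chr2:132529082-132587729), which splits glycerophosphocholine into choline and glycerol phosphate, was at 253, 267 and 271 CPM against 69.2, 77.2 and 69.8 CPM. The libraries of each group lay close together for these genes and the groups far apart, with falls of 3.94-fold, 4.6-fold and 3.66-fold (log2 fold changes of -1.98 ± 0.17, -2.20 ± 0.19 and -1.87 ± 0.16), each at an adjusted p of 0.00106. None of the 5 lost its call without any 1 library or with the length and GC trend removed.

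Several enzyme groups held falls of abundant transcripts. Of 33 cyclases and cyclic nucleotide phosphodiesterases 3 fell (9.09%), and all 3 were adenylyl cyclases, the enzymes that Gs-coupled receptors activate. Adcy2 was at 1562, 2294 and 2257 CPM against 547, 474 and 779 CPM (3.4-fold lower, adjusted p = 0.00449). Adcy9 and Adcy6 were scarcer, at means of 33.6 and 26.1 CPM against 9.62 and 8.77 CPM, with adjusted p-values of 0.0169 and 0.0415. Adcy2 kept its call in all 6 leave-outs, Adcy9 lost it without GFP-303, GFP-307, A2A-310 or A2A-313, and Adcy6 kept it only without GFP-303. Of 136 glycosyltransferases, sulfotransferases and mannosidases 11 fell (8.09%). Ogt, which attaches N-acetylglucosamine to intracellular proteins, was at 927, 955 and 879 CPM against 207, 295 and 208 CPM (3.88-fold lower, adjusted p = 0.00184). Chst10, which sulfates the HNK-1 carbohydrate, was at 900, 721 and 656 CPM against 312, 216 and 304 CPM (2.74-fold lower, adjusted p = 0.00532). Ndst1 and Xylt2, both of heparan sulfate assembly, fell 3.49-fold and 3.02-fold. The groups did not overlap for these 4 genes.

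Of 273 protein kinases 16 fell (5.86%). The atypical MAP kinase Mapk4 was at 2230, 1785 and 1926 CPM against 546, 346 and 620 CPM (3.93-fold lower, adjusted p = 0.00279). Prkaa1, a catalytic subunit of the energy-sensing kinase AMPK, was at 90.2, 67.1 and 92.9 CPM against 29.6, 14.4 and 14.4 CPM (4.28-fold lower, adjusted p = 0.00643). Ptk2, the focal adhesion kinase, was at 233, 174 and 217 CPM against 105, 101 and 92.4 CPM (2.09-fold lower, adjusted p = 0.0101). All 3 kinases were lower in each AAV-A2A library. Of 130 histone, DNA and chromatin enzymes 11 fell (8.46%), among them the class IIa deacetylase Hdac4 at 334, 346 and 372 CPM against 126, 133 and 130 CPM (2.7-fold lower, adjusted p = 0.00211) and the histone demethylases Kdm5b, Kdm4a and Kdm3b. Of 349 genes in the ubiquitin list 18 fell (5.16%). One of these, Zdhhc5, is a protein palmitoyltransferase and not a ubiquitin enzyme. Rnf13, a ubiquitin ligase of endosomal and lysosomal membranes, was at 4162, 2921 and 2035 CPM against 988, 954 and 860 CPM (3.25-fold lower, adjusted p = 0.00616), with a spread among the AAV-GFP libraries that the AAV-A2A libraries did not show.

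Over all tested genes, metabolic enzymes fell in shares nearer to the 3.19% of all genes. At 20 CPM or more, where 7.16% of all genes fell, the shares of the groups below were smaller. The counts there were 6 of 110, 2 of 63 and 7 of 130 genes, in the order below. Of 162 enzymes of amino acid, one-carbon, nucleotide and aldehyde metabolism 6 fell (3.7%). Abat, which degrades GABA, was at 326, 398 and 452 CPM against 154, 113 and 182 CPM (2.62-fold lower, adjusted p = 0.00815). Of 83 enzymes of glucose, glycogen, pyruvate and the citric acid cycle 2 fell (2.41%), Ogdhl and Pfkfb3, which makes the allosteric activator of phosphofructokinase and was at 477, 399 and 364 CPM against 219, 144 and 131 CPM (2.51-fold lower, adjusted p = 0.0117, lost without A2A-310). The groups lay apart for both genes. Of 202 enzymes of fatty acids, glycerolipids and sterols 7 fell (3.47%), with a median log2 fold change over the list of 0.02, the same as that of all tested genes at this precision. Acot11, an acyl-CoA thioesterase, was at 162, 178 and 103 CPM against 43.0, 43.2 and 58.9 CPM (3.05-fold lower, adjusted p = 0.00685). Over the class, 55 enzymes were called without GFP-306, 56 without A2A-310 and 55 without A2A-313, in place of 87, and DESeq2 called 167.

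Transcription factors that fell came from several families, and 1 rose. Klf12 (chr14:99870632-100284679), a Kruppel-like repressor, was at 320, 335 and 363 CPM in AAV-GFP and 73.6, 72.5 and 88.4 CPM in AAV-A2A libraries. Sox6 (chr7:115470872-116038796), an HMG-box factor of glial development, was at 716, 628 and 591 CPM against 227, 218 and 220 CPM. Foxp1 (chr6:98925338-99522721), a forkhead repressor, was at 67.0, 66.0 and 74.2 CPM against 22.4, 16.7 and 17.2 CPM. The AAV-A2A values sat close together and below every AAV-GFP value, and the falls were 4.34-fold, 2.91-fold and 3.68-fold (log2 fold changes of -2.12 ± 0.17, -1.54 ± 0.16 and -1.88 ± 0.21, adjusted p = 0.00106, 0.00206 and 0.00234). The zinc finger gene Zfp60 (chr7:27731389-27753702) was at 123, 140 and 114 CPM against 36.7, 25.4 and 20.1 CPM. Zfp866 (chr8:69761326-69791178) was at 115, 93.0 and 106 CPM against 27.8, 14.1 and 15.6 CPM. Zfp236 (chr18:82593593-82692883) was at 108, 110 and 94.8 CPM against 31.5, 39.4 and 25.7 CPM. The groups did not overlap, and the falls were 4.59-fold, 5.46-fold and 3.24-fold (log2 fold changes of -2.20 ± 0.25, -2.45 ± 0.28 and -1.70 ± 0.21, adjusted p = 0.00226, 0.00254 and 0.00306). All 6 were called without any 1 library. Atp13a1 lies on the opposite strand of Zfp866 and other transcripts overlap Foxp1 and Zfp236. The same uncertainty holds for other genes named here that have a partner on the opposite strand, such as Srebf1 (Rai1), Acot11 (Fam151a), Zdhhc5 (Med19) and Slc25a18 (Atp6v1e1), and Adcy2, Adcy6, Hdac4, Kdm3b, Mapk4, Rnf13, Notch1, Unc5c, Ddr1, Ddr2, Gli3, Npas3, Bhlhe40, Bhlhe41, Olig1 and Slc25a23.

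Helix-loop-helix factors had the highest share in the class, with 9 of 62 lower (14.5%) and 1 higher. Srebf2, which drives cholesterol synthesis genes, was at 1634, 1274 and 1632 CPM against 411, 190 and 360 CPM (4.72-fold lower, adjusted p = 0.00334). Srebf1, which drives fatty acid synthesis genes, was at 1304, 1137 and 1355 CPM against 628, 379 and 538 CPM (2.46-fold lower, adjusted p = 0.00944). Npas3, a factor expressed by astrocytes and their precursors, was at 373, 474 and 491 CPM against 155.1, 102.4 and 167.3 CPM (3.15-fold lower, adjusted p = 0.00406). These 3 stood apart in all libraries and kept their calls in every leave-out. The clock-linked repressors Bhlhe40 and Bhlhe41 also fell, the former losing its call without GFP-306, GFP-307, A2A-309 or A2A-310 and the latter without GFP-307, A2A-310 or A2A-313, and Myc, at a mean of 34.5 CPM against 11.9 CPM, was called in none of them. Of 150 factors of the NFI, SMAD, STAT, NFAT, MEF2 and related families 14 fell (9.33%). Rfx3, a regulator of cilium genes, was at 421, 320 and 250 CPM against 83.3, 43.6 and 82.5 CPM (4.73-fold lower, adjusted p = 0.00366). Stat5b, which carries cytokine and growth hormone signals, was at 68.3, 147 and 126 CPM against 25.5, 22.1 and 27.3 CPM (4.55-fold lower, adjusted p = 0.00366). The lowest AAV-GFP value was GFP-307 for Rfx3 and GFP-303 for Stat5b, each still above the AAV-A2A range. At 20 CPM or more, 13 of 78 C2H2 zinc finger genes fell, against 462 of 6451 genes of that level (7.16%). Of all 455 tested C2H2 genes 15 fell (3.3%, against 3.19% of all genes), among them the Hedgehog effectors Gli3 and Gli2. One of the 15, Zfp36l1, binds RNA and is not a transcription factor. The number of transcription factors called was 29 without GFP-306, 28 without A2A-310 and 26 without A2A-313, in place of 47, and DESeq2 called 90.

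**Figure D4:**
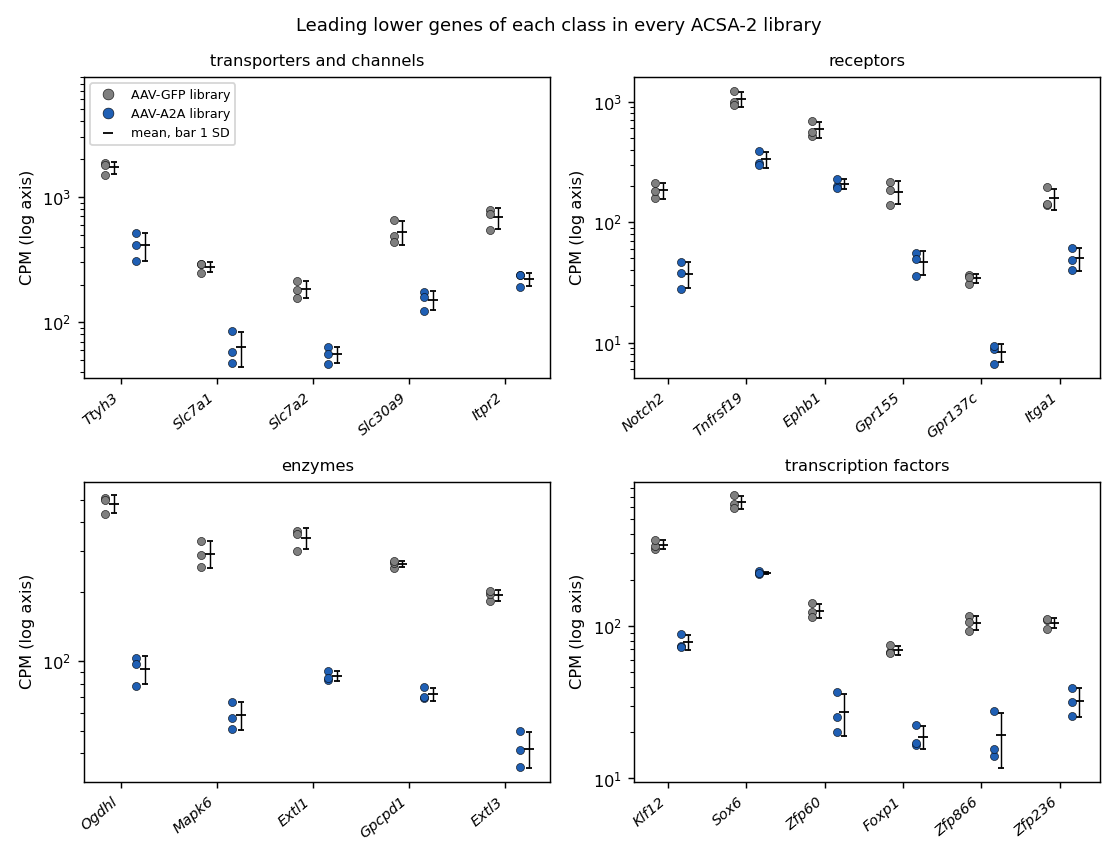
Points give the CPM (log axis) of the genes described above as leading each class by smallest p, among called genes of at least 20 CPM. Genes named by the study or by an account of the whole series were left out. The 3 AAV-GFP libraries are grey and the 3 AAV-A2A libraries blue, with the mean and 1 SD beside the points. In every gene shown each AAV-A2A library lies below every AAV-GFP library, with fold changes between the 2.85 of Ephb1 and the 5.46 of Zfp866.

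Genes named by the study or by an account of the whole series were left out of a ranking by fold change. Of the rest, the 8 highly expressed genes with the largest fold changes all fell. Ogdhl and Mapk6 were among them, as were Rasgrp3, Ppp3r1, Errfi1, Crkl and Spry2. Rasgrp3 (chr17:75435896-75529054), an exchange factor that activates Ras and Rap in response to diacylglycerol, was at 131, 219 and 204 CPM against 33.02, 33.02 and 36.94 CPM. Ppp3r1 (chr11:17159263-17200375), the regulatory subunit of the calcium-dependent phosphatase calcineurin, was at 582, 544 and 460 CPM against 126, 68.1 and 94.1 CPM. Errfi1 (chr4:150853919-150868892), an inhibitor of the EGF receptor, was at 194, 287 and 308 CPM against 72.0, 27.3 and 36.8 CPM. The groups lay apart, and the falls of 5.38-fold, 5.5-fold and 5.8-fold (log2 fold changes of -2.43 ± 0.23, -2.46 ± 0.24 and -2.54 ± 0.36, adjusted p = 0.0016, 0.00184 and 0.00505) held in each leave-out. Spry2 (chr14:105891947-105896819), a feedback inhibitor of receptor tyrosine kinase signalling, was at 200, 165 and 231 CPM against 60.5, 12.4 and 27.1 CPM. Crkl (chr16:17451987-17487434), an adaptor that links receptor kinases to Ras and Rap, was at 284, 389 and 381 CPM against 106, 20.4 and 53.5 CPM. The AAV-A2A libraries were widely spread for these last genes, lowest in A2A-310 and highest in A2A-309, and still below every AAV-GFP library. Their falls of 5.96-fold and 5.85-fold (log2 fold changes of -2.58 ± 0.48 and -2.55 ± 0.49) passed the test at adjusted p = 0.0177 and 0.0205. Without A2A-313 the adjusted p was 0.0869 and 0.0953 and without GFP-307 it was 0.0515 and 0.0545, while Spry2 also lost its call without GFP-303 (0.0537) and Crkl without GFP-306 (0.0701). Without A2A-310 it was 0.0224 and 0.018. Rasgrp3 was more abundant in the AAV-GFP CD11b libraries (mean 668 CPM) than in the ACSA-2 libraries, while Spry2 was at 11.6 CPM there. Wdr92 overlaps Ppp3r1 on the same strand.

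Since the A2A receptor acts through cyclic AMP, promoters were read for the full cyclic AMP response element TGACGTCA, a palindrome that reads the same on both strands. The RefSeq windows (GRCm38.p6) ran from 250 bases before to 50 bases after each start site and matched 11798 tested genes by symbol. The element was present in 3.46% of these genes and in 3.86% of those with a mean of at least 20 CPM. It was present in 16 of 411 genes called lower (3.89%) and in 0 of 20 genes called higher. Crkl, Errfi1 and Flt1 are shown as named genes that fell and whose window held the element. Each line gives the 150 bases before the start site, 5′ to 3′ on the gene's strand, with the element in capitals, which begins 82, 51 and 81 bases before the start. The start sites are those of RefSeq, and the window of Errfi1 lies inside the gene span given above, which came from another annotation.
Crkl, chr16:17451835-17451984, plus strand: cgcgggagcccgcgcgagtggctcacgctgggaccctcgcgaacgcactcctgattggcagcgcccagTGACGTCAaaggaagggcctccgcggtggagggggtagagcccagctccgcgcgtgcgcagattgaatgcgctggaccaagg
Errfi1, chr4:150854920-150855069, plus strand: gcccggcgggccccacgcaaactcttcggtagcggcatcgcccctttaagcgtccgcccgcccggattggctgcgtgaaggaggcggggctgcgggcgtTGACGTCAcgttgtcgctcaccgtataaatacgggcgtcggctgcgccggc
Flt1, chr5:147726012-147726161, minus strand: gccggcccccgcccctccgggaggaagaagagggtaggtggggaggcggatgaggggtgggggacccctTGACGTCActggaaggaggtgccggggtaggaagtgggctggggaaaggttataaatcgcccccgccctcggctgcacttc
A match in these letters is a description of the sequence only.

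Of the 29 genes that rose, 3 were receptors and 1 a transcription factor. With a mean of at least 5 CPM, 16 were named neither by the study nor by an account of the whole series. Hes5 (chr4:154960923-154962371), a helix-loop-helix repressor that is a direct target of Notch signalling, was at 101, 94.8 and 113 CPM in AAV-GFP and 227, 211 and 262 CPM in AAV-A2A libraries. Tspan4 (chr7:141475240-141493427), a tetraspanin of migrating cells, was at 52.5, 50.6 and 53.1 CPM against 98.8, 116 and 114 CPM. These 2 genes did not overlap between groups, rose 2.27-fold and 2.11-fold (1.19 ± 0.17 and 1.08 ± 0.17 on the log2 scale, adjusted p = 0.00536 and 0.0078), and were the only genes of these 16 called in all 6 leave-outs. Transcripts on the opposite strand, Gm20421 and Chid1, overlap them. The 4 genes of the 16 next in p were Ncor1, Prex2, Mpp5 and Trip11. Ncor1 (chr11:62316426-62458541), a corepressor of nuclear receptors, was at 81.1, 75.8 and 73.0 CPM against 140, 161 and 143 CPM. Prex2 (chr1:10993465-11303681), an exchange factor for Rac, was at 79.6, 84.1 and 67.5 CPM against 146, 210 and 152 CPM. Mpp5 (chr12:78748907-78840714), the cell polarity scaffold PALS1, was at 17.89, 18.04 and 17.95 CPM against 38.5, 46.7 and 37.2 CPM. All AAV-A2A values were above all AAV-GFP values, with rises of 1.93-fold, 2.2-fold and 2.27-fold (rose by 0.95 ± 0.16, 1.14 ± 0.20 and 1.18 ± 0.22 on the log2 scale, adjusted p = 0.0114, 0.013 and 0.0167). Without GFP-306 the adjusted p-values were 0.067, 0.0533 and 0.0701, and without GFP-307 they were 0.0635, 0.068 and 0.0698. Pigl and Ttc19 lie on the opposite strand of Ncor1. Ncor1 and Mpp5 also lost their call without A2A-310 (adjusted p = 0.05 and 0.0723). Trip11, a Golgi tether with Gm20036 on the opposite strand, was at 19.0, 17.1 and 21.5 CPM against 48.7, 46.8 and 37.9 CPM (2.32-fold higher, adjusted p = 0.0169, and 0.0544 to 0.0811 without GFP-303, GFP-306, A2A-309 or A2A-310).

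Gria2 (chr3:80681450-80802835), the AMPA receptor subunit that limits calcium entry, was at 60.6, 43.9 and 38.4 CPM against 98.9, 162 and 84.1 CPM. Chil1 (chr1:134182176-134190181), a chitinase-like protein of reactive astrocytes, was at 130, 110 and 170 CPM against 219, 300 and 277 CPM. Lxn (chr3:67457998-67463926), the carboxypeptidase inhibitor latexin, was at 391, 339 and 312 CPM against 544, 557 and 654 CPM. The groups lay apart in each, by a narrow gap in Gria2 and Chil1, and the rises were 2.41-fold, 1.94-fold and 1.68-fold (rose by 1.27 ± 0.28, 0.95 ± 0.21 and 0.75 ± 0.17 on the log2 scale, adjusted p = 0.0415, 0.0411 and 0.0449). These calls were less firm. Gria2 kept its call only without A2A-313 (adjusted p = 0.0416) and reached 0.161 without GFP-306. Chil1 kept it without GFP-307 or A2A-309 (0.0392 and 0.0436) and reached 0.173 without GFP-306, and Lxn kept it in none of the 6 leave-outs (0.0651 to 0.194). With the length and GC trend removed, the adjusted p was 0.00695 for Gria2, 0.0544 for Chil1 and 0.187 for Lxn, whose opposite strand holds Gfm1. Gm25749 overlaps Gria2 on the same strand. Gria2 was at 3.48 CPM in the AAV-GFP CD11b libraries.

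The rest of the 16 rose 1.63-fold to 3.25-fold. Myo6, an actin motor that moves toward the minus end, was at 104, 83.1 and 84.8 CPM against 165, 154 and 195 CPM (1.9-fold higher, adjusted p = 0.0215, and 0.0552 to 0.115 without A2A-309, A2A-313, GFP-307 or GFP-306). Fam181a was at 19.5, 16.1 and 24.3 CPM against 47.8, 39.9 and 50.8 CPM (2.31-fold higher, adjusted p = 0.0232, and 0.0779 to 0.101 without GFP-303, A2A-309, A2A-313 or GFP-306). Dbndd2, which Gm20458 overlaps on the same strand, was at 10.3, 8.19 and 9.62 CPM against 22.8, 24.3 and 22.5 CPM (2.48-fold higher, adjusted p = 0.0242, and 0.0727 to 0.103 in every leave-out but that of GFP-303). In none of these did the groups overlap. Fxyd7, a small regulator of the sodium pump, was at 3.75, 4.42 and 3.41 CPM against 16.2, 10.7 and 10.7 CPM (3.25-fold higher, adjusted p = 0.0341). The cohesin release factor Wapl was at 23.8, 22.2 and 24.2 CPM against 41.4, 46.9 and 45.4 CPM (1.91-fold higher, adjusted p = 0.0368). Tmf1, a Golgi-associated protein, was at 29.4, 28.5 and 24.3 CPM against 56.3, 44.5 and 60.2 CPM (1.96-fold higher, adjusted p = 0.0402). Ubxn4, which takes part in degradation at the endoplasmic reticulum, was at 83.4, 92.6 and 85.6 CPM against 153, 140 and 134 CPM (1.63-fold higher, adjusted p = 0.0448). These last 4 genes were apart in all libraries yet called in none of the leave-outs, where their adjusted p-values ran from 0.0531 to 0.176. The call of Tmf1 was also lost with the length and GC trend removed (adjusted p = 0.0557) and that of Ubxn4 with no filter on low counts (0.0636). The number of genes called higher fell from 29 to 7 without GFP-306, 15 without GFP-307, 10 without A2A-309, 7 without A2A-310 and 18 without A2A-313.

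**Figure D5:**
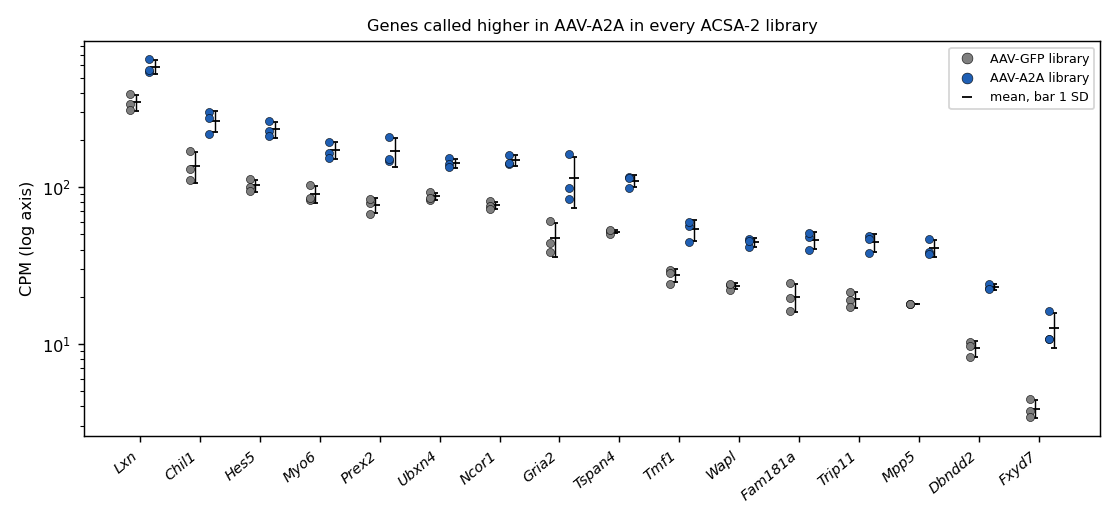
Points give the CPM (log axis) of 16 genes called higher with a mean of at least 5 CPM. Genes named by the study or by an account of the whole series were left out. The 3 AAV-GFP libraries are grey and the 3 AAV-A2A libraries blue, with the mean and 1 SD beside the points. Every AAV-A2A library lies above every AAV-GFP library in all 16 genes, by the widest ratio in Fxyd7 (3.25-fold) and the narrowest in Ubxn4 (1.63-fold).

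Members of each class were ranked by CPM per kb of exon, without genes named by the study or by an account of the whole series. The enzyme Glul, which the study names and which was called lower, was therefore not ranked. The most abundant of the ranked genes in each class did not pass the test. Among enzymes these were Aldoc, the astrocytic aldolase, at 5053 CPM per kb, and Cpe, carboxypeptidase E, at 3556 CPM per kb over the 6 libraries. Aldoc was at 16860, 15600 and 13260 CPM against 13670, 16250 and 23290 CPM, and Cpe at 7610, 8445 and 8342 CPM against 8219, 9451 and 13600 CPM. The groups overlapped, and the log2 differences were 0.22 ± 0.23 and 0.36 ± 0.21 (SE). Among receptors, Gpr37l1, an orphan receptor of astrocytes, was at 3912, 5162 and 4380 CPM against 3223, 2608 and 4742 CPM, and the neurotensin receptor Ntsr2 at 3882, 3862 and 3033 CPM against 3111, 3535 and 4925 CPM (log2 differences of -0.35 ± 0.24 and 0.10 ± 0.21). Among transporters, the mitochondrial ATP and ADP exchanger Slc25a4 had a log2 difference of 0.07 ± 0.18 and the mitochondrial glutamate carrier Slc25a18 one of 0.26 ± 0.20. The inhibitory helix-loop-helix genes Id3 and Id2 led the transcription factors. Id3 was at 1226, 787 and 1025 CPM against 1460, 1482 and 1792 CPM, which did not overlap, with a log2 difference of 0.64 ± 0.20 and an adjusted p of 0.167 in edgeR, against 0.044 in DESeq2. Id2 overlapped between the groups (0.17 ± 0.19).

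The sort antigen and markers of other cells moved with the groups in part. Atp1b2 (chr11:69599736-69605942), which encodes the beta-2 subunit of the sodium pump that carries the ACSA-2 epitope, was at 1843, 1460 and 1409 CPM against 808, 677 and 959 CPM. It was lower in every AAV-A2A library, fell 1.93-fold (log2 fold change of -0.95 ± 0.20, adjusted p = 0.0294) and kept its call only without A2A-313 (0.025), with 0.0616 to 0.118 in the other leave-outs. It was the 1 astrocyte marker of 18 that was called. Markers of oligodendrocyte precursors summed to 374 to 591 CPM in AAV-GFP and 172 to 346 CPM in AAV-A2A libraries, and 1 of 5 tested fell, the proteoglycan Cspg4 at 186, 288 and 290 CPM against 70.5, 53.1 and 45.7 CPM (4.52-fold lower, adjusted p = 0.00226). The sums of the list did not overlap with Cspg4 and overlapped without it, at 188 to 302 CPM against 119 to 301 CPM. The other abundant marker of that list, Olig1, overlapped at 160, 238 and 197 CPM against 182, 87.0 and 229 CPM, and Gpr17, Sox10 and Neu4 were not among the tested genes. In sorted bulk cells, fewer cells of a type and less RNA per cell cannot be told apart.

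Neural stem cell and neuroblast markers summed to 115 to 226 CPM against 75.8 to 105 CPM, and 1 of 11 fell, Neurod4, whose AAV-GFP values of 11.9, 129 and 15.4 CPM were dominated by GFP-306 and whose AAV-A2A values were 0.860, 1.49 and 1.44 CPM (adjusted p = 0.013, lost when any of the 3 AAV-A2A libraries was left out, with limma-voom, at 0.27, and with no filter on low counts, at 0.104, while DESeq2 gave none). Without Neurod4 the sums overlapped, at 97.0 to 106 CPM against 74.3 to 104 CPM. Of 9 endothelial markers 1 fell, the VEGF receptor Flt1 at 157, 196 and 190 CPM against 47.0, 77.5 and 46.9 CPM (3.16-fold lower, adjusted p = 0.00523), while the abundant endothelial gene Cldn5 overlapped at 154, 165 and 184 CPM against 134.5, 246.9 and 139.8 CPM. The endothelial sum was 543 to 621 CPM in AAV-GFP libraries, 638 CPM in A2A-310 and 345 and 361 CPM in the other AAV-A2A libraries. Of 12 immediate early genes 1 fell, Egr1, at 275, 168 and 196 CPM against 104, 47.3 and 58.8 CPM (adjusted p = 0.0213, and 0.0726 to 0.0896 without GFP-303, A2A-310 or A2A-313), and the summed list overlapped between groups. Over that list the median log2 fold change was 0.29, and 8 of the 12 genes had a positive value. No member of the neuronal, oligodendrocyte, microglial, mural, ependymal, choroid plexus, erythrocyte or heat shock lists was called, and their sums overlapped except that of the choroid plexus list, at 573 to 627 CPM against 646 to 1079 CPM. The part of these cell types in the genes above was not tested. Of the 50 called genes named by rule, 21 were at least 4-fold higher in the AAV-GFP ACSA-2 than in the AAV-GFP CD11b libraries and 12 were higher in the CD11b libraries.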

How the data were processed

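The authors trimmed reads with cutadapt 1.10, aligned them to the mouse genome with STAR 2.5.3 and counted reads per gene with HTSeq 0.6.1p1, and they deposited raw counts of 27866 genes in the 6 ACSA-2 libraries. A second deposited table of raw counts, of CD11b cells, gave levels only. There were no molecular identifiers, so counting errors take reads as independent. Gene positions, exonic lengths and overlaps came from GENCODE M21 (GRCm38), which held 27813 of the gene identifiers. CPM were scaled by TMM. The 16451 genes kept by filterByExpr were fitted with edgeR 4.0.16 (robust quasi-likelihood F test, vector as the only term), and SE is the absolute log2 fold change divided by the square root of F. Each group holds 3 animals, and the p-values set the difference between groups against the spread between libraries. For each gene that spread was estimated in part from the other genes. It holds differences between animals and between preparations together. No replicate pair agreed within counting noise (chi-square per degree of freedom 51.6 to 152), so none was merged. A call is an adjusted p under 0.05 with an absolute log2 fold change over 0.32, thresholds taken from the study. The fit was tested on simulated data.

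The classes were set by symbol patterns among protein-coding genes. The genes named by rule were the 6 called genes with the smallest p per class at 20 CPM or more, the 8 largest falls or rises at 100 CPM or more, genes called higher at 5 CPM or more, the 2 most abundant per kb in each class, the most abundant and every called gene of each marker list, and Atp1b2. Other members of a group were named as examples, by smallest p or after their values were seen. Genes named by the study or by an account of the whole series were left out unless a result turned on them. A few genes that met these rules are not reported here. The classes, lists and rules were chosen with earlier results of these data known. Alternatives were RLE scaling, no filter on low counts, DESeq2 1.42.0 (the tool of the authors), limma-voom (limma 3.58.1), an offset for exonic length and GC content (mgcv 1.9.3), and each library left out.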

Additional observations from a re-analysis of the deposited data

How the results depend on the processing

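No paired analysis was possible because the animals of the 2 groups share no replicate numbers. RLE scaling called 552 genes, limma-voom 592, no filter on low counts 662 and the length and GC offset 516. DESeq2 called 1263 genes, 271 higher and 992 lower, 804 of them at 20 CPM or more, with 56 transporters and channels, 53 receptors, 167 enzymes and 90 transcription factors, and 552 of the 553 edgeR calls were among its calls. The offset raised the number called higher from 29 to 46. When 1 library was left out, the number called ran from 313 to 467, higher from 7 to 21, lower from 306 to 457, and at 20 CPM or more from 291 to 413. For the classes the ranges were 19 to 28 for transporters and channels, 55 to 75 for enzymes and 26 to 44 for transcription factors. Genes of at least 20 CPM whose groups did not overlap, 1703 with all libraries, numbered 2067 to 2600 with 2 against 3 libraries, where separation is easier by construction. Of 70 genes named by rule, 50 were called, 49 of these by DESeq2, 49 by limma-voom and 47 with the offset, 31 in every leave-out and 5 in none, and no called gene changed direction under these alternatives. Causes of these differences were not tested. Depth and 3 libraries a group limit the calls, so a gene that was not called is not shown to be unchanged.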
